A study of Mus musculus with 6 samples.

Results

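Bdnf, 2 further neurotrophin ligands (Ntf3 and Ntf5) and 4 receptors of the family (Ntrk2, Ntrk3, Ngfr and Sort1) were followed in cultured mouse cortical neurons before and during depolarization. These 7 genes were taken by name from the 43432 genes listed in each table, and 6 of the 7 received an adjusted p. Bdnf rose 16.3-fold by 2 h of KCl and 28.8-fold by 6 h, Ntf3 fell to 0.46 of its starting level by 6 h, and Ntrk2 was 1.68-fold higher at 6 h. The mean length of Ntrk2 RNA was also greatest at 6 h, a shift toward the full-length form that did not pass the thresholds set for length.

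Poly(A) RNA was sequenced from cortical neurons of wild-type (WT) C57BL/6 embryos at E16.5, male and female pooled. Cells of all groups grew for 7 days in vitro and were silenced overnight from day 6 with 1 μM tetrodotoxin (TTX), which blocks sodium channels, and 100 μM DL-AP5, which blocks NMDA receptors. KCl at 55 mM was then present for 0 h, 2 h or 6 h, with 2 libraries per time point and 6 in all. The 0 h libraries are therefore silenced neurons and not neurons with spontaneous activity, and both later time points are compared with these same 2 libraries.

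Neurotrophins are secreted growth factors that are made as precursors and cleaved before or after release. BDNF and neurotrophin-4/5 bind the receptor kinase TrkB, encoded by Ntrk2, neurotrophin-3 prefers TrkC, encoded by Ntrk3, and the precursors bind p75, encoded by Ngfr, together with sortilin, encoded by Sort1. In cortical neurons Bdnf is a classical calcium-responsive gene, with several alternative 5′ exons that each have a promoter of their own and splice to a shared coding exon. Ntrk2 RNA encodes either the full-length receptor with its intracellular kinase or a truncated receptor that lacks it, and the truncated form is abundant in astrocytes.

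The total expected count was 25959298 to 28573067 per library. The labels call the libraries biological duplicates and say nothing of separate cultures, so each p-value measures the spread between these libraries, which was widest at 2 h. Fos and Npas4, immediate-early transcription factor genes used to check the labels, were 209-fold and 199.8-fold higher at 2 h. The summed TPM (an abundance per unit of transcript length that adds up to one fixed total in every library) of 10 neuronal markers was 5375 to 5851 in all libraries, a sum that hides opposite changes. Between 0 h and 6 h, Tubb3 fell by 1.01 on the log2 scale (SE 0.14, DESeq2 adjusted p = 1.4e-12), while Gad1 rose by 1.41 (SE 0.11, adjusted p = 1.3e-36) and Gad2 by 1.36 (SE 0.17, adjusted p = 9.4e-15), and the other 7 were not called. All 8 astrocyte markers were detected, and their summed TPM was 761 and 833 at 0 h, 733 and 766 at 2 h and then 588 and 566 at 6 h. Markers of the oligodendrocyte lineage summed to 96.2 to 149 TPM, of progenitors and dividing cells to 79.4 to 105 TPM, of fibroblasts and pericytes to 12.7 to 19.97 TPM, of microglia to at most 9.42 TPM and of endothelium to at most 1.62 TPM. In bulk RNA, fewer cells of a type and less RNA per cell cannot be told apart.

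The Bdnf gene (ENSMUSG00000048482) lies at chr2:109674700-109727007 on the plus strand of GRCm38, and the tables assign it 11 transcripts of 3707 to 4266 bases in GENCODE M21. The gene totals hold all of them, so the values do not say which start site was used. RefSeq (GRCm38.p6) gives promoter windows for 7 start sites of Bdnf, the gene whose RNA changed most, and 2 of them are shown. The first precedes the annotated start of the gene. The second is the only 1 of the 7 that holds the motif CGTCA, described below. The 250 bases before the start at position 109674700 lie at chr2:109674450-109674699. The 250 bases before the start at position 109692436 lie at chr2:109692186-109692435, and capitals mark the 5 letters of CGTCA, one arm of the palindrome bound by CREB.
Bdnf window at 109674450: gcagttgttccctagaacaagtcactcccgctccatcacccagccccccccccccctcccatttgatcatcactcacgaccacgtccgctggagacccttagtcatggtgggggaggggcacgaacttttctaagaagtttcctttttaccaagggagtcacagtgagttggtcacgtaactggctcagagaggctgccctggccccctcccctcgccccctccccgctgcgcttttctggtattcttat
Bdnf window at 109692186: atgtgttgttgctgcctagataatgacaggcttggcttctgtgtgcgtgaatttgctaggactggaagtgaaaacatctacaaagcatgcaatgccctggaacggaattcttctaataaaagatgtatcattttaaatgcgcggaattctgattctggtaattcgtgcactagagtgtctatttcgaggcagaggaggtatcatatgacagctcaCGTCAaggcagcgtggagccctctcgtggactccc
CGTCA, searched on both strands, was found in 1 of the 7 Bdnf windows, 35 bases before the start, and in 17.8% of 32851 windows of the same length. The whole palindrome TGACGTCA was in 0 of the 7 and in 1.55% of all windows. CANNTG, the E-box core, was in 6 of the 7 and in 66.2% of all windows. TGANTCA, the AP-1 core, was in 1 of the 7 and in 6.75% of all windows. A match describes these letters and is not a measured binding site.

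The tables hold 2 Ntrk2 transcripts, which share their first 1394 coding bases and then diverge. The sequences below span that point, since the mean length of Ntrk2 RNA, described with its values, depends on the mix of the forms. Both read 5′ to 3′ on the plus strand of chromosome 13, the 30 shared bases are in lower case, and the 37 bases that follow in each form are in capitals.
Ntrk2 full-length (ENSMUST00000079828): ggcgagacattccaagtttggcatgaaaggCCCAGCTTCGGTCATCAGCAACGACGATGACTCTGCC
Ntrk2 truncated (ENSMUST00000109838): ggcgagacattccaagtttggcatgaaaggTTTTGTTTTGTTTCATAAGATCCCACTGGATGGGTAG
In the truncated transcript the coding sequence ends with the last 3 capitals, a TAG stop codon, after 1431 coding bases with the stop. The full-length transcript reads on to 2466. The truncated form ends in an exon of its own at chr13:58932023-58937027 (GRCm38), and the last exon of the full-length form lies at chr13:59128168-59133970.

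Bdnf was the gene with the largest change among the 7. Its normalized read count was 99.4 and 79.2 in the 0 h libraries, 1707 and 1209 at 2 h, followed by 2580 and 2565 at 6 h. The groups did not overlap in any comparison, the 2 libraries at 6 h were nearly equal, and those at 2 h stood farthest apart. The log2 fold change was 4.03 (SE 0.22, DESeq2 adjusted p = 3.4e-71) at 2 h against 0 h and 4.85 (SE 0.22, adjusted p = 6.4e-104) at 6 h against 0 h. From 2 h to 6 h Bdnf was 1.76-fold higher (log2 fold change 0.82, SE 0.20, DESeq2 adjusted p = 1.5e-04), which is under the threshold of the study. Calls needed an adjusted p no higher than 0.05 together with a log2 fold change beyond 1 in either direction. Without 2 h replicate 1 this log2 fold change was 1.10 and Bdnf was called, and with a correction for GC content it was 0.43. In a ranking of the 11183 genes whose normalized counts averaged 100 or more, the Bdnf log2 fold change ranked 13th from the top at 2 h and 10th at 6 h, both against 0 h.

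In TPM, Bdnf stood at 1.87 and 1.51 at 0 h, 28.6 and 20.5 at 2 h and then 42.0 and 42.5 at 6 h. Silenced neurons held little Bdnf RNA, and its place in the order of the 7 genes by TPM moved from position 5 at 0 h to position 3 at 2 h and 6 h. The Bdnf effective length, a mean over its transcripts weighted by their abundance, was 3756 and 3734 bases at 0 h, 3690 and 3710 at 2 h, followed by 3779 and 3785 at 6 h. It differed by at most 0.03 on the log2 scale between time points, and no such difference passed the limma test (adjusted p of 0.53 at 2 h against 0 h, 0.38 at 6 h against 0 h and 0.15 at 6 h against 2 h). Its transcripts differ little in length, so this measure can show only part of a change in first exon use.

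**Figure D1:**
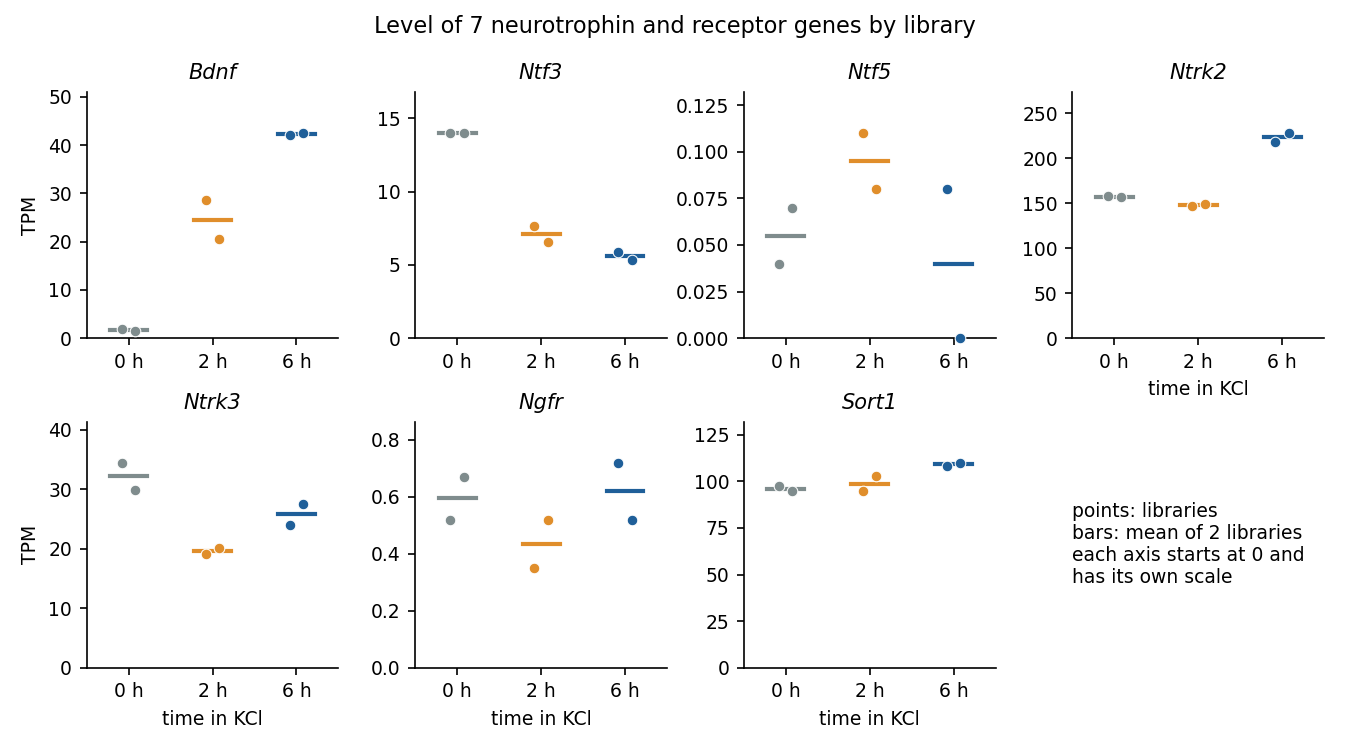
TPM of each gene (vertical axis, from 0, its own scale per panel) against time in KCl (horizontal axis), with a point per library and a bar at the mean of 2 libraries. Bdnf climbs from 1.69 to 42.3 TPM on average, Ntf3 drops from 14.0 to 5.61 TPM, and Ntf5 stays at or below 0.11 TPM.

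Ntf3, which encodes neurotrophin-3 and lies at chr6:126101412-126166910 on the minus strand, moved the other way. The normalized count of Ntf3 was 216.6 and 210.7 at 0 h, 131 and 112 at 2 h and then 104 and 91.4 at 6 h. Both 0 h libraries lay above all later ones, and the 2 h and 6 h libraries did not overlap. At 2 h the log2 fold change was -0.82 (SE 0.24, DESeq2 adjusted p = 0.0040), under the fold threshold, and the adjusted p was 0.21 without 0 h replicate 1, 0.17 without 0 h replicate 2 and 0.099 without 2 h replicate 2. At 6 h Ntf3 fell by 1.13 on the log2 scale (SE 0.25, adjusted p = 2.1e-05) and was called. The difference between 2 h and 6 h, -0.31 (SE 0.25, 95% interval -0.81 to 0.19, adjusted p = 0.33), did not pass the test. The fall at 6 h lies close to the threshold, and a test against an absolute log2 fold change of 1 did not call it (adjusted p = 1). Ntf3 levels were 14.0 TPM in each 0 h library, 7.62 and 6.58 at 2 h, followed by 5.88 and 5.34 at 6 h.

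Ntf5, which encodes neurotrophin-4/5 at chr7:45413695-45417179, was at the limit of detection. The 0 h libraries held 1 and 2 expected counts, those of 2 h held 3 and 2, and those of 6 h held 2 and 0, all within the floor of 3 counts, and DESeq2 gave no adjusted p. No difference was detectable at this depth, at which 3 counts correspond to between 0.109 and 0.123 TPM.

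Set side by side per length, the ligand transcripts changed in proportion. Of the summed TPM of Bdnf, Ntf3 and Ntf5, Bdnf made up 11.8% and 9.71% at 0 h, 78.7% and 75.5% at 2 h, followed by 87.6% and 88.8% at 6 h. Ntf3 made up 88.0% and 89.8% at 0 h, 21.003% and 24.2% at 2 h and then 12.3% and 11.2% at 6 h. The leading transcript of the 3 was Ntf3 in both silenced libraries and Bdnf in all 4 depolarized ones. The ratio of Bdnf to Ntf3 TPM was 0.13 and 0.11 at 0 h, 3.75 and 3.11 at 2 h, followed by 7.15 and 7.96 at 6 h. These shares are given as values, with no test run on them.

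**Figure D2:**
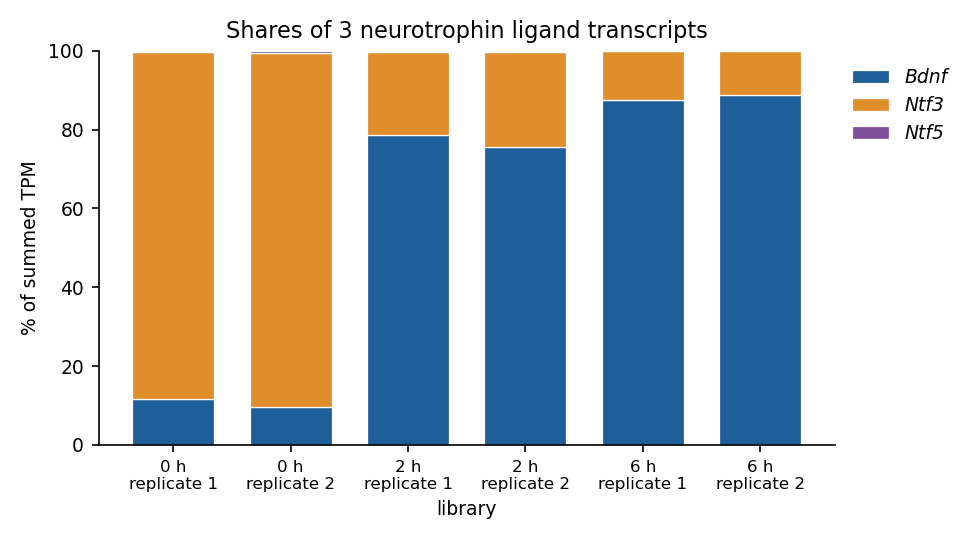
Share of the summed TPM (vertical axis, %) taken by Bdnf, Ntf3 and Ntf5 in each of the 6 libraries (horizontal axis). Ntf3 holds 88.0% and 89.8% of the bar at 0 h, and Bdnf holds 75.5% to 88.8% in the 4 depolarized libraries.

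Among the receptors, Ntrk2 was the most abundant of the 7 genes at every time point. It lies at chr13:58806569-59133970 on the plus strand and encodes TrkB, the receptor for BDNF. Its normalized count was 17134 and 16806 at 0 h, 17915 and 17838 at 2 h and then 28049 and 28818 at 6 h. The 6 h libraries stood far above the rest, while those of 0 h and 2 h were close. The log2 fold change was 0.08 (SE 0.09, 95% interval -0.09 to 0.24, DESeq2 adjusted p = 0.60) at 2 h against 0 h. It was 0.74 (SE 0.09, adjusted p = 4.4e-17) at 6 h against 0 h and 0.67 (SE 0.09, adjusted p = 6.9e-14) at 6 h against 2 h, both under the fold threshold. The difference at 2 h changed sign with library totals as size factors (-0.09) and on TPM, and with library totals the value at 6 h against 0 h was 0.50.

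In TPM, Ntrk2 stood at 157.8 and 156.9 at 0 h, 146.7 and 149.2 at 2 h, followed by 218.7 and 228.2 at 6 h. Since Bdnf changed more than its receptor, there were 84.4 and 104 Ntrk2 transcripts per Bdnf transcript at 0 h, 5.14 and 7.28 at 2 h and then 5.20 and 5.37 at 6 h. Per Ntrk3 transcript there were 4.58 and 5.24 Ntrk2 transcripts at 0 h, 7.66 and 7.38 at 2 h and then 9.08 and 8.30 at 6 h.

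The mean length of Ntrk2 RNA also changed with time. It was 7953 and 7920 bases at 0 h, 7855 and 7831 at 2 h, followed by 8219 and 8239 at 6 h, with no overlap between groups. With only the 2 transcripts shown above, of 8744 and 6846 bases in GENCODE M21, this mean fixes the share of each form. GENCODE M21 lists further Ntrk2 transcripts that the tables lack, among them a full-length coding one of 4706 bases and a truncated coding one of 3049. The shares below therefore hold only if the 2 forms make up Ntrk2 RNA. The full-length form made up 58.3% and 56.6% of Ntrk2 TPM at 0 h, 53.2% and 51.9% at 2 h and then 72.3% and 73.4% at 6 h. The full-length share was highest in both 6 h libraries and lowest in both 2 h libraries.

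Expressed as TPM, the full-length form stood at 92.1 and 88.8 at 0 h, 78.0 and 77.5 at 2 h, followed by 158 and 167 at 6 h, a ratio of means of 1.80 at 6 h against 0 h. The truncated form stood at 65.8 and 68.1 at 0 h, 68.7 and 71.7 at 2 h and then 60.5 and 60.7 at 6 h, a ratio of 0.91. The direction for the truncated form depended on the scaling. On normalized counts per 1000 bases of effective length, an alternative added after the data were seen, it was 933 and 959 at 0 h, 1113 and 1141 at 2 h and then 983 and 969 at 6 h, a ratio of 1.03 at 6 h against 0 h. The full-length form was higher in both 6 h libraries than in every earlier one on both scales, and its ratio on the second was 2.05. The summed astrocyte marker TPM given above was also lowest in the 6 h libraries, and its part in the share of the truncated form was not tested. By DESeq2, 0 of the 8 astrocyte markers were called at 6 h against 0 h, where 9.1% of all genes were called higher and 10.2% lower. Their median log2 fold change was -0.28, beside 0.00 over all genes tested. The shares assume that the lengths in the annotation of the authors equal those of GENCODE M21. Of 27749 single-transcript genes, 82.6% had a deposited length within 0.5 bases of it. Of 1322 genes with 2 transcripts and a count of at least 100, 84.6% lay between their GENCODE M21 lengths in all 6 libraries. The assumption failed for Sort1, at 5067 and 4998 bases at 0 h, where its shortest assigned transcript has 5193. It also failed for Ntf3, at 1378 and 1380 bases at 2 h, where its shortest assigned transcript has 1399.

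The effective lengths were tested with limma over 11233 genes whose expected counts averaged 100 or more, and calls needed an adjusted p no higher than 0.05 and a log2 ratio of 0.2 or more in size. Called genes made up 0.0356% of those tested at 2 h against 0 h, 0.525% at 6 h against 0 h and 0.116% at 6 h against 2 h. Of the 5 genes with enough counts (Bdnf, Ntf3, Ntrk2, Ntrk3 and Sort1), 0 were called in these comparisons, and 2, 3 and 3 had an unadjusted p under 0.05. For Ntrk2 the log2 ratio was 0.05 at 6 h against 0 h (SE 0.0042, adjusted p = 0.047) and 0.07 at 6 h against 2 h (SE 0.0042, adjusted p = 0.053). A complete switch between the forms would change the log2 of the length by only 0.35. The adjusted p of 0.047 was 0.055 with a count minimum of 20 and 0.093 to 0.16 with a library left out, so the Ntrk2 length is reported as a measured shift that did not pass the thresholds.

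**Figure D3:**
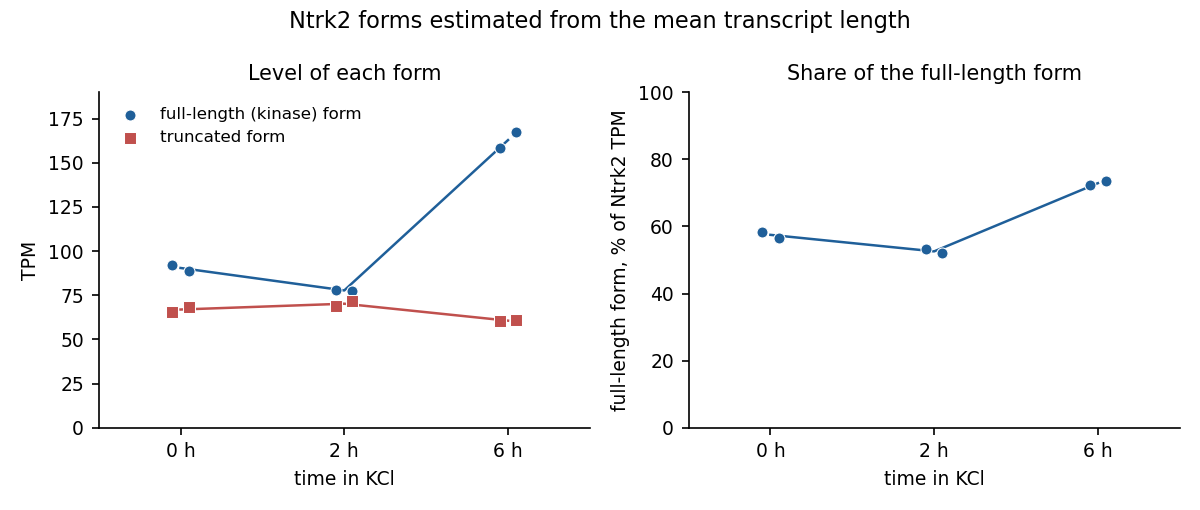
Left, TPM of the full-length and truncated Ntrk2 forms (vertical axis) against time in KCl (horizontal axis). Right, the full-length share of Ntrk2 TPM in percent. Points are libraries and lines join group means. The full-length form reaches 158 and 167 TPM at 6 h while the truncated form stays between 60.5 and 71.7 TPM.

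Ntrk3 (chr7:78175959-78738012, minus strand) encodes TrkC, the receptor preferred by neurotrophin-3. The libraries gave normalized counts of 1130 and 953 at 0 h, 719 and 724 at 2 h, followed by 937 and 1067 at 6 h. The 2 h libraries were the lowest, and those of 0 h and 6 h overlapped. Against 0 h, Ntrk3 was lower at 2 h (log2 fold change -0.53, SE 0.16, DESeq2 adjusted p = 0.0038) and higher at 6 h than at 2 h (0.47, SE 0.16, adjusted p = 0.0068), in both cases under the fold threshold. At 6 h against 0 h the difference was -0.06 (95% interval -0.36 to 0.25, adjusted p = 0.81). The adjusted p was 0.30 without 0 h replicate 1 for the first of these and 0.22 without 6 h replicate 2 for the one between 6 h and 2 h. Ntrk3 levels were 34.5 and 29.97 TPM at 0 h, 19.2 and 20.2 TPM at 2 h and then 24.1 and 27.5 TPM at 6 h. The 7 markers of the oligodendrocyte lineage, all detected, were also lowest at 2 h, with a summed TPM of 126 and 149 at 0 h, 96.2 and 114 at 2 h, followed by 123 and 133 at 6 h. Of these, Sox10, a lineage transcription factor, stood at 5.92 and 8.38 TPM at 0 h, 0.80 and 1.27 at 2 h and then 4.90 and 4.82 at 6 h, and their part in the Ntrk3 values was not tested. In the annotation Gm9885, a gene on the opposite strand with a mean normalized count of 26.6, lies inside Ntrk3. The Ntrk3 expected counts were whole numbers in all 6 libraries, with no read divided between genes.

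Ngfr (chr11:95568818-95587735, minus strand) encodes p75, a receptor for all neurotrophins and, with sortilin, for their precursors. Ngfr gave normalized counts of 23.1 and 29.5 at 0 h, 18.0 and 25.8 at 2 h, followed by 36.4 and 25.8 at 6 h. The libraries overlapped in all 3 comparisons. The log2 fold changes were -0.27 (95% interval -1.34 to 0.81, DESeq2 adjusted p = 0.81) at 2 h and 0.24 (95% interval -0.81 to 1.295, adjusted p = 0.75) at 6 h, both against 0 h, and 0.51 between 2 h and 6 h (95% interval -0.57 to 1.59, adjusted p = 0.48). These intervals include changes of more than 2-fold, so at this depth a difference was not detectable. At 0.35 to 0.72 TPM, Ngfr was the lowest of the receptors in every library.

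Sort1 (chr3:108284082-108361511, plus strand) encodes sortilin, which sorts the BDNF precursor inside the cell and partners p75 at the surface. Its normalized count was 6585 and 6243 at 0 h, 7828 and 7742 at 2 h and then 9150 and 9313 at 6 h. The groups did not overlap. The log2 fold change was 0.28 (SE 0.09, DESeq2 adjusted p = 0.012) at 2 h and 0.53 (SE 0.09, adjusted p = 8.4e-08) at 6 h, both against 0 h, and 0.25 (SE 0.09, adjusted p = 0.019) at 6 h against 2 h, all under the fold threshold. In TPM the levels were 97.4 and 94.7 at 0 h, 94.9 and 102.7 at 2 h, followed by 108 and 110.0 at 6 h, and the 0 h and 2 h libraries overlapped. On log2(TPM + 1) the differences were smaller, 0.04 at 2 h and 0.18 at 6 h against 0 h (limma adjusted p = 0.75 and 0.094). The DESeq2 adjusted p at 2 h against 0 h was 0.24 without 0 h replicate 1, 0.43 without 0 h replicate 2 and 0.16 without either 6 h library. At 6 h against 2 h it was 0.17 without either 0 h library, 0.25 without 6 h replicate 1 and 0.32 without 6 h replicate 2. On this TPM scale the median of all genes averaging 10 or more counts was itself -0.14 at 2 h and -0.13 at 6 h. The Sort1 effective length, by which TPM divides, was 4765 and 4684 bases at 0 h, 5093 and 4742 at 2 h and then 5213 and 5311 at 6 h, a log2 difference from 0 h of 0.06 at 2 h and 0.16 at 6 h.

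Ordered by TPM at 0 h, the 7 genes ran Ntrk2, Sort1, Ntrk3, Ntf3, Bdnf, Ngfr and Ntf5. At 2 h and at 6 h they ran Ntrk2, Sort1, Bdnf, Ntrk3, Ntf3, Ngfr and Ntf5. No neighbours in these orders had overlapping library values, although Bdnf at 20.5 TPM in 2 h replicate 2 lay just above Ntrk3 at 20.2 TPM in the same library.

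**Figure D4:**
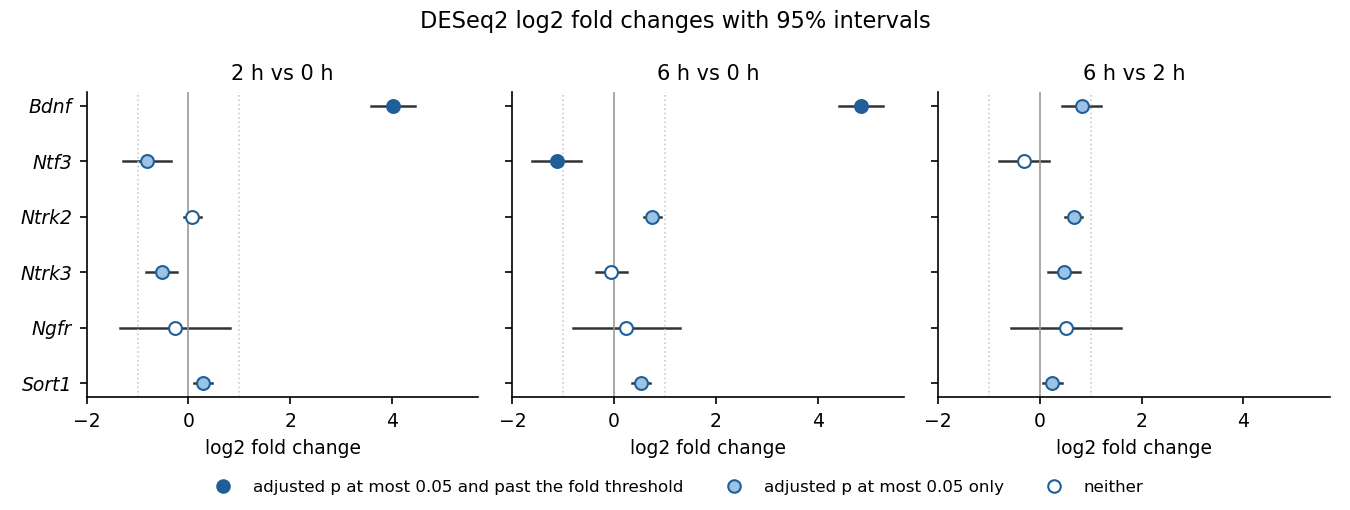
DESeq2 log2 fold change (horizontal axis) of 6 genes (vertical axis) in the 3 comparisons, with 95% intervals. Dotted lines mark the fold threshold. Filled points passed both thresholds, pale points the adjusted p alone and open points neither. Bdnf stands at 4.03 and 4.85 against 0 h, and Ntf3 at 6 h is the only filled point below 0.

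The calls among the 7 genes were counted beside those over all genes. At 2 h against 0 h, 1 of the 6 genes with an adjusted p was called higher (Bdnf), where 3.62% of all genes tested were, and 0 were called lower, where 5.94% of all genes were. At 6 h against 0 h, 1 was called higher (Bdnf) and 1 lower (Ntf3), against 9.1% and 10.2% of all genes. At 6 h against 2 h, 0 were called in either direction, against 10.1% called higher and 8.02% called lower. The edgeR quasi-likelihood test gave the same counts. In each comparison 4 of the 6 genes had an adjusted p of at most 0.05, and also an unadjusted p under 0.05, whatever the fold, where 26.5%, 45.3% and 45.3% of all genes did in the order above. The median log2 fold change of the 6 genes was -0.10 at 2 h and 0.38 at 6 h, beside 0.02 and 0.00 over all genes tested.

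Proneurotrophins are cut by proprotein convertases and plasmin and travel in dense-core granules. Of 19 genes of this processing and sorting list, 17 were tested against 0 h, 3 rose at 2 h (Pcsk1, Scg2 and Syt4; 3.62% of all genes were called higher) and 4 at 6 h (the same 3 and Plat; 9.1% of all genes). By DESeq2, 0 of the 17 were called lower at either time, where 5.94% and 10.2% of all genes were. An unadjusted p under 0.05 was reached by 10 at 2 h and 13 at 6 h, and an adjusted p of 0.05 or less by 8 and 11, where 26.5% and 45.3% of all genes reached the latter. Pcsk1, a convertase of regulated granules, had a normalized count of 146 and 163 at 0 h, 5076 and 4110 at 2 h, followed by 5358 and 5095 at 6 h (log2 fold changes 4.89 and 5.08, SE 0.16 for both). It was the gene of the list with the largest change, and both depolarized groups lay far above 0 h. Scg2, a granule protein, rose by 2.06 (SE 0.10) at 2 h and 2.92 (SE 0.10) at 6 h on the log2 scale, from a normalized count of 2283 ± 27.1 (SD, n = 2) at 0 h. Syt4, a synaptotagmin that limits BDNF release, rose by 1.33 (SE 0.16) and 1.49 (SE 0.16). Plat, the tissue plasminogen activator, rose by 1.22 (SE 0.11) at 6 h, a value that was 0.98 and under the threshold with library totals. Furin, the convertase of the constitutive route, was lower at 2 h (-0.48, DESeq2 adjusted p = 0.033) and higher at 6 h (0.47, adjusted p = 0.019), under the threshold. Below 0 h with an adjusted p under 0.05, but short of the fold threshold, were also Pcsk5 at 2 h (-0.64) and Pcsk2 (-0.32) and Hap1 (-0.39) at 6 h. Between 2 h and 6 h the called genes were Pcsk5 (1.39) and Pcsk7 (1.01), both higher at 6 h, out of 16 tested and beside 10.1% of all genes. Pcsk7 stood under the fold threshold with TMM factors (0.98), library totals (0.93) and edgeR (0.99), and without 6 h replicate 2 (0.98). The median of the list was 0.28 at 2 h and 0.47 at 6 h.

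Of 13 genes of the sortilin family and p75 partners, 0 were called by DESeq2 or edgeR at 2 h against 0 h, with 4 at an unadjusted p under 0.05, where 3.62% of all genes were called higher and 5.94% lower. Against 0 h, 2 rose and 1 fell at 6 h, where 9.1% and 10.2% of all genes were called higher and lower. Ripk2, a kinase that binds the p75 death domain, had a normalized count of 82.0 ± 8.0 (SD, n = 2) at 0 h, 90.0 ± 10.1 at 2 h and 604.5 ± 1.6 at 6 h (log2 fold change at 6 h 2.88, SE 0.21, DESeq2 adjusted p = 1.8e-40). It was flat at 2 h and stood apart at 6 h. Sorcs3, a receptor of the sortilin family, rose by 1.15 (SE 0.15) at 6 h (0.90 with library totals and 0.87 on log2(TPM + 1), both under the threshold), and Rtn4r, the Nogo receptor that signals through p75, fell by 1.27 (SE 0.30). Ripk2 and Sorcs3 were also the 2 genes called at 6 h against 2 h, both higher, where 10.1% of all genes were. The median of the list was -0.01 at 2 h and 0.12 at 6 h.

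Of 32 Trk adaptors, kinases and feedback genes, 2 rose and 1 fell at 2 h, and 4 rose and 2 fell at 6 h, against 0 h. Over all genes, 3.62% were called higher and 5.94% lower at 2 h, and 9.1% and 10.2% at 6 h, so the counts at 6 h lie near the background. Crkl, an adaptor of the Rap1 branch, rose by 1.23 (SE 0.12) at 2 h and 1.09 (SE 0.13) at 6 h on the log2 scale. Shc3, the neuronal Shc adaptor, stood at 0.06 (SE 0.13, DESeq2 adjusted p = 0.81) at 2 h and rose by 1.22 (SE 0.13) at 6 h. Slitrk5, a membrane protein that promotes TrkB recycling, fell by 1.15 (SE 0.15, DESeq2 adjusted p = 2.7e-12) at 2 h and then rose by 1.38 (SE 0.15, adjusted p = 5.7e-18) from 2 h to 6 h. Its normalized count was 1797 and 1599 at 0 h, 800 and 735 at 2 h and then 1822 and 2183 at 6 h, lowest at 2 h as was Ntrk3. Of the core kinases and enzymes, Mapk3, Akt1 and Plcg1 stayed uncalled in all 3 comparisons. The other called genes were Plcg2 (2.00 at 2 h, 1.03 at 6 h) and Sos1 (1.08 at 6 h), with Shc2 (-1.11) and Frs3 (-1.58) lower at 6 h. At 6 h against 2 h, 3 rose (Shc3, Sh2b2 and Slitrk5) and 2 fell (Shc2 and Frs3), beside 10.1% and 8.02% of all genes. The higher calls at 6 h against 0 h all ended with library totals (Crkl 0.85, Shc3 0.98, Sos1 0.83 and Plcg2 0.78), and Plcg2 had an adjusted p of 0.056 to 0.28 when each of the 6 libraries was left out in turn. Frs3 rested on low counts, 70.1 and 68.3 at 0 h, 56.9 and 81.7 at 2 h and then 11.8 and 34.4 at 6 h after normalization. Its log2 fold change at 6 h against 2 h was -0.35 on log2(TPM + 1) (limma adjusted p = 0.41), -1.01 without 6 h replicate 1 (DESeq2 adjusted p = 0.18), -2.56 without 6 h replicate 2 and -1.29 without 2 h replicate 2 (adjusted p = 0.12). Against 0 h the adjusted p of Frs3 at 6 h was 0.10 and 0.093 without 0 h replicate 1 and 2 and 0.18 without 6 h replicate 1. For Shc2 at 6 h against 2 h the log2 fold change was -0.99 with the GC correction and -0.88 on log2(TPM + 1). At 6 h against 0 h the Shc2 value was -0.94 with the GC correction, also under the fold threshold. The median of the list was 0.12 at 2 h and 0.21 at 6 h.

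Of 21 transcription factors linked to Bdnf promoters, 5 rose (Fosb, Fos, Npas4, Junb and Crem) and 1 fell (Bhlhe40) at 2 h, and 6 rose and 1 fell (Crtc1) at 6 h, against 0 h. The shares called higher and lower over all genes were 3.62% and 5.94% at 2 h and 9.1% and 10.2% at 6 h. Npas4 had a normalized count of 47.0 and 37.9 at 0 h, 7467 and 9480 at 2 h, followed by 3899 and 3614 at 6 h. It was highest at 2 h, when Bdnf had not yet reached its highest value. Fos likewise stood at 38.2 and 34.6 at 0 h, 6939 and 8222 at 2 h and then 3915 and 3806 at 6 h. Fosb rose from at most 8.88 normalized counts at 0 h to 3923 and 4566 at 2 h and lay at 479 and 409 at 6 h (log2 fold change 9.91, SE 1.35, at 2 h, and 14.7 or 8.91 without 0 h replicate 1 or 2). Between 2 h and 6 h Npas4 fell by 1.17 (SE 0.16), Fosb fell by 3.26 (SE 1.27) and Junb fell by 2.15 (SE 0.38) on the log2 scale, while Creb1 rose by 1.47 (SE 0.28), where 8.02% of all genes were called lower and 10.1% higher. The Fosb difference did not pass with the replicate block (adjusted p = 0.061) or when each library of 2 h and 6 h was left out in turn (0.22 to 0.31), and Npas4 stood at -0.98 both with the GC correction and without 2 h replicate 2. Creb1, which encodes CREB, had a normalized count of 2284 and 2087 at 0 h, 2122 and 1039 at 2 h, followed by 4310 and 4442 at 6 h. The 2 libraries at 2 h differed widely for this gene, and its log2 fold change at 6 h against 2 h was 2.08 without 2 h replicate 1 and 1.06 without 2 h replicate 2. At 6 h against 0 h Creb1 lay on the threshold (1.00) and was under it with TMM factors (0.96), library totals (0.76), edgeR (0.97) and the GC correction (0.92) and without 0 h replicate 2 (0.94). Crtc1 at 6 h stood at -0.86 with the GC correction and -0.97 without 0 h replicate 1. The median of the list was 0.06 at 2 h and 0.53 at 6 h.

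**Figure D5:**
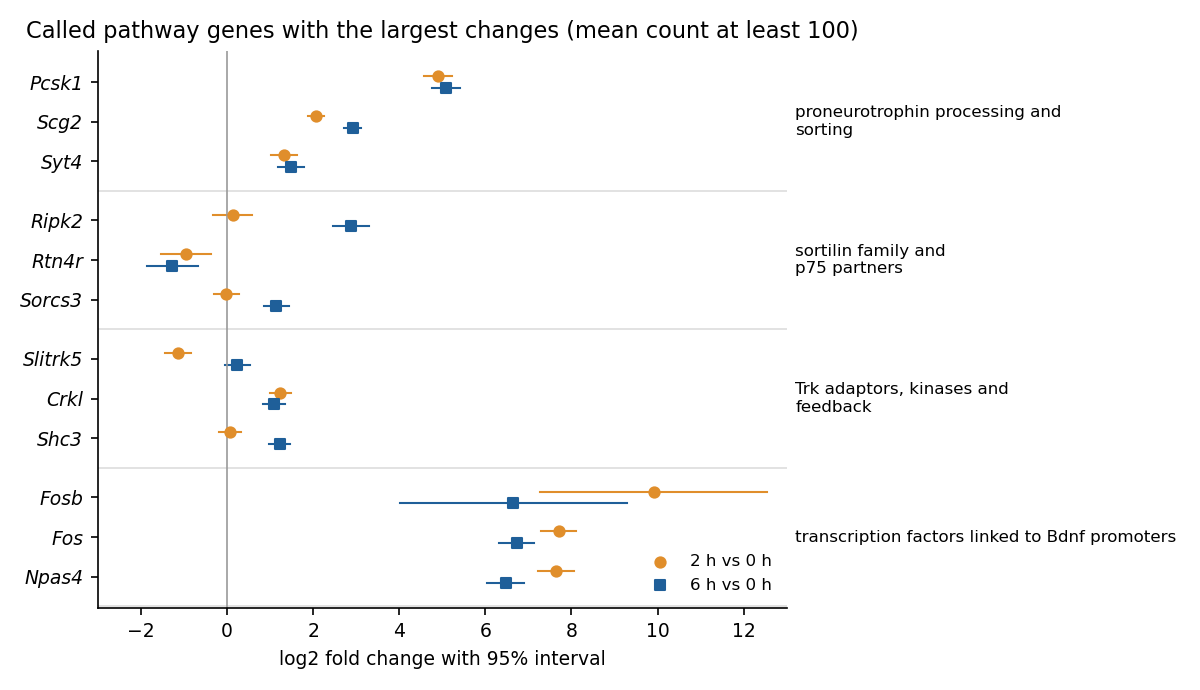
DESeq2 log2 fold change against 0 h (horizontal axis, with 95% intervals) at 2 h (circles) and 6 h (squares) for the 3 called genes with the largest changes among those averaging 100 or more normalized counts in each pathway list (vertical axis). Pcsk1 and the transcription factors stand far right at both times, while Ripk2, Sorcs3 and Shc3 lie near 0 at 2 h and at 2.88, 1.15 and 1.22 at 6 h.

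In a search of the 12290 genes averaging 50 or more normalized counts, those with time courses closest to Bdnf were Spem1, Gpr35, Sertad1, Crem and Pcsk1, by Euclidean distance over the 6 libraries of log2 values centred on 0 h (0.67, 0.72, 1.01, 1.16 and 1.33). Crem, a CREB family member, rose by 3.62 and 4.14 on the log2 scale at 2 h and 6 h, and Pcsk1 by 4.89 and 5.08. The first 3 were of low abundance, with mean normalized counts of 4.33, 6.92 and 14.4 at 0 h and 123, 173 and 275 at 6 h. They reached the average of 50 only through the depolarized libraries, and their distances rest on few counts at 0 h. The closest to Ntf3 was Tia1 at a distance of 0.11, to Ntrk2 Rnf20 at 0.06 and to Sort1 Rapgef2 at 0.06.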

How the data were processed

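Reads were mapped to mm10 by the authors and quantified with RSEM, and the processing notes of the submitters name RSEM 1.3.0 and Bowtie2 2.2.9. The annotation release is not given in the sources used here. The expected counts deposited by the authors are not normalized. The TPM and FPKM values deposited by the authors are corrected for length, and FPKM was not used. Length and effective length, deposited by the authors, are means over transcripts.

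Expected counts were rounded and fitted over all 22515 genes with a count in 1 DESeq2 1.42.0 model (R 4.3.3) of the 6 libraries, with the Wald test, size factors from medians of ratios and Benjamini-Hochberg adjustment after independent filtering at 0.05. Normalized counts are counts divided by those factors. Thresholds were those of the study. Effective length was tested with limma 3.58.1. Alternatives used edgeR 4.0.16, other size factors, GC content, a count filter, TPM, a replicate term and each library left out. The functions were tested on simulated data. Intervals are at 95% and, like the floor of 3 counts, cover no error beyond that of these libraries.

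Symbols and positions came from GENCODE M21 (GRCm38), which placed 42548 of the 43432 genes. Promoter windows came from RefSeq, in which 4 of the 7 genes were matched (Ntrk3, Sort1 and Ntf5 were not). The whole gene list of each pathway was counted, and in each the 3 called genes with the largest log2 fold change and normalized counts averaging 100 or more were described. Others named to complete a count, and Furin, Pcsk2, Hap1, Mapk3, Akt1, Plcg1, Creb1 and Sox10, were chosen after their values were seen. The 5 genes nearest to Bdnf and the 3 nearest to each other gene averaging 50 or more normalized counts were listed, the first of each 3 being named. Some results are not reported here. The genes and lists were chosen with earlier results of these data known.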

Additional observations from a re-analysis of the deposited data

How the results depend on the processing

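The higher Bdnf calls at 2 h and 6 h against 0 h held under every alternative run (log2 fold change 3.23 to 4.24 and 4.01 to 5.02). Bdnf at 6 h against 2 h ranged from 0.43 to 1.10, and leaving out single libraries moved the number of genes called higher there between 0 and 1. Ntf3 at 6 h stayed lower throughout (-1.38 to -1.04), but under the test against an absolute log2 fold change of 1 (-1.13, adjusted p = 1) the genes called lower numbered 0. The median of all genes averaging 10 or more counts was 0.01 at 2 h and -0.00 at 6 h against 0 h, -0.16 and -0.25 with library totals, and -0.14 and -0.13 with log2(TPM + 1). Under these the value for Ntrk2 at 2 h changed sign, to -0.0912 with library totals, -0.0884 with log2(TPM + 1) and -0.0889 with log2(TPM + 0.1). Ngfr at 6 h against 0 h became -0.0072 with library totals and -0.0284 without 6 h replicate 1, and reached 0.47 without 6 h replicate 2. Ntrk3 at 6 h against 0 h ranged from -0.32 with log2(TPM + 0.1) to 0.0751 without 0 h replicate 1, and was 0.0335 without 6 h replicate 1 and -0.17 without 0 h replicate 2. Its effective length at 2 h changed sign with single libraries left out (-0.0203 without 2 h replicate 1, -0.0159 without 0 h replicate 2, 0.0209 without 2 h replicate 2), and so did that of Ntf3 at 6 h (0.0123 without 0 h replicate 1, 0.0067 without 6 h replicate 2, -0.015 without 0 h replicate 2). Beside the losses given in the report, the adjusted p of Sort1 was 0.46 at 2 h with library totals, and at 6 h against 2 h 0.053 with TMM factors, 0.16 with library totals and 0.17 with log2(TPM + 1). In the lists, the processing genes called at 6 h against 2 h numbered 1 with TMM factors, library totals or edgeR, the p75 list at 2 h gave 1 with library totals or the GC correction and the Trk list at 6 h against 0 h gave 2 with library totals. Of the 20 list calls at 6 h against 0 h, 13 to 20 were made again under the other size factors, tools, scales, filter, corrections and single libraries left out, as were 11 to 12 of 12 at 2 h and 9 to 13 of 13 at 6 h against 2 h. The test against an absolute log2 fold change of 1 made 9, 7 and 1 of them. The causes were not tested.

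Same-numbered libraries deviated together with r = 0.28 between 0 h and 2 h, -0.00 between 0 h and 6 h and 0.15 between 2 h and 6 h over 12290 genes, so the numbers were not taken as pairs. The replicate block ended the call of Fosb at 6 h against 2 h, leaving 3 of 4 transcription factors called there, and changed no call among the 7 genes (Bdnf 4.02 and 4.86 at 2 h and 6 h against 0 h, Ntf3 -1.13 at 6 h). It gave Sort1 at 6 h against 2 h an adjusted p of 0.050 and the Ntrk2 effective length at 6 h against 0 h one of 0.13, and over all genes it called 548 higher and 967 lower at 2 h. With 2 libraries a group, the spread at 2 h limits the values there, and counts as low as those of Ngfr and Ntf5 leave changes of 2-fold within their intervals.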
